A study of Mus musculus with 6 samples.

Results

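The genes described here encode the transport machinery of cilia, namely the intraflagellar transport (IFT) complexes, their motors, the BBSome and its regulators. They number 39 of the 55359 genes in the deposited table, and they were chosen by gene symbol, not by their measured values. Each symbol matched 1 row, and 39 of 39 passed the expression filter, a mean of at least 1 FPKM (counts scaled to exon length and library total) over all libraries, as did 14539 genes in all. RNA sequencing was done on total RNA of the habenula, an epithalamic brain region beside the third ventricle, from C57BL/6 mice aged 2 months. The groups are 3 libraries labelled WT and 3 labelled Tet2 cKO, a conditional knockout of Tet2, which encodes a dioxygenase of 5-methylcytosine. The libraries with the second label are called cKO-labelled below. The sources used here give neither the driver nor the deleted exons. Nothing in the labels says that libraries came from separate animals, so a p-value measures only the spread between them, which may be technical.

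Cilia are built and kept by trains of proteins that move along their microtubules. IFT-B trains are carried towards the tip by kinesin-2, IFT-A serves the return by dynein-2 and the entry of membrane proteins, and the BBSome links membrane cargo to the trains. Nearly all brain neurons and astrocytes bear a single primary cilium that uses this machinery for signalling receptors. Ependymal cells, which line the ventricles, build many motile cilia with the same transport genes plus a separate set of axonemal genes.

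Library totals ran from 16089676 to 17917987 counts. Tet2 itself had 3.45, 3.46 and 3.71 FPKM in the WT libraries, all below the 4.47, 4.02 and 3.96 FPKM of the cKO-labelled ones (log2 difference 0.22, adjusted p = 0.9999 by edgeR). Its whole-gene count shows no loss, so each direction below is that of the labels. Medial habenula neuron markers were present, with 8 of 8 at a mean of 9.16 FPKM or more. WT replicate 3 stood apart, since it held the highest or lowest value of 54.3% of all tested genes, against 25.6% to 32.8% in the other 5 libraries. Its medial habenula score, a mean of log2(FPKM + 1), was the lowest (4.35, against 4.63 to 5.20), and its ependymal score was the highest.

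Most of the transport genes showed little difference between the groups. The edgeR quasi-likelihood test called 0 of 39 at a Benjamini-Hochberg adjusted p under 0.05, where it called 0% of all tested genes. At an unadjusted p under 0.05 there were 2, namely Ttc21a, a subunit gene of IFT-A, and Dync2li1, a chain of dynein-2. Both were lower in the cKO-labelled libraries and 0 were higher, where 1.68% and 0.894% of all tested genes were lower and higher at that p. DESeq2, limma and limma voom also called 0 of the 39. The edgeR test without an expression filter called 1, Ttc21a, where it called 49 of the 31689 genes it tested.

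The differences were small in size as well as uncalled. The median log2 difference of the 39 genes, Tet2 cKO minus WT, was -0.01 (0.991-fold), beside -0.0021 over all tested genes. The log2 difference was below 0 for 23 of 39 genes, with 50.9% of all tested genes below 0. In 38 of 39 the fitted difference was under 1.25-fold, as it was for 92.7% of all tested genes. The exception was Ttc21a. The 95% interval lay wholly within 1.25-fold for 28 of 39 genes, within 1.5-fold for 37 and within 2-fold for 39, where the shares of all tested genes were 50.2%, 80.5% and 92.5%. The genes whose interval passed 1.5-fold were Ttc21a and Bbs12. The FPKM of the groups did not overlap for 3 of 39 genes, beside 6.8% of all tested genes. These were Ttc21a and Dync2li1, both lower (background 3.46%), and Bbs9, which was higher (background 3.34%).

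**Figure D1:**
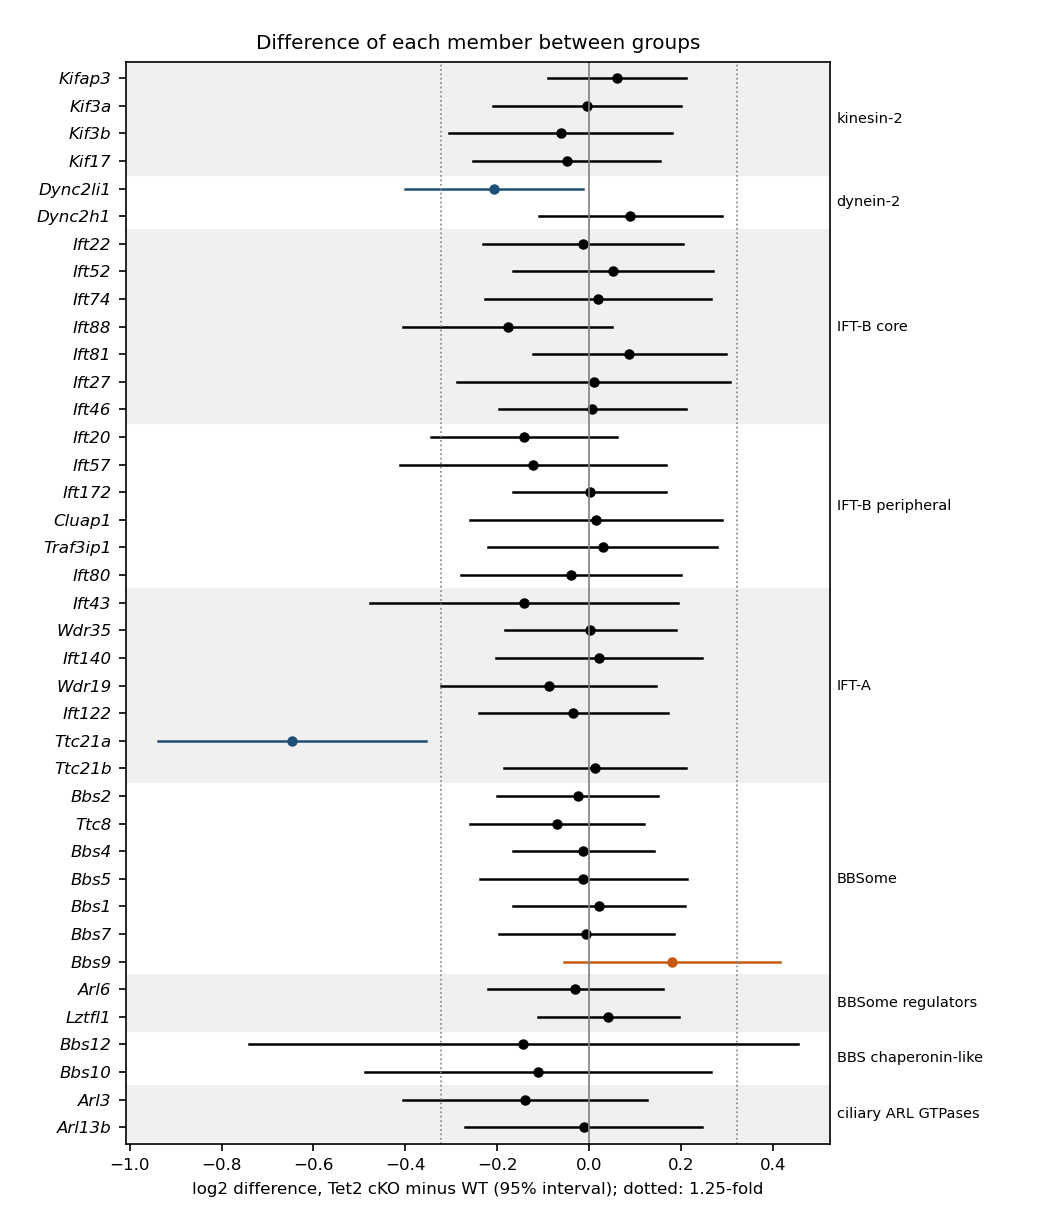
Log2 difference (Tet2 cKO minus WT) of each of the 39 genes on the horizontal axis, with its 95% interval from edgeR, grouped by role. Blue and orange mark genes whose groups do not overlap (lower and higher), and the dotted lines mark 1.25-fold. Ttc21a, at -0.65, is the 1 gene whose point lies outside them.

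Ttc21a carried the largest difference of the 39 genes. Ttc21a and Ttc21b are paralogs that encode forms of the IFT139 subunit of IFT-A, and Ttc21a is best known from sperm flagella. Ttc21a (ENSMUSG00000032514, plus strand of chromosome 9, 119937606 to 119967793, positions here and below on GRCm38) measured 2.45, 3.09 and 3.16 FPKM in WT replicates 1 to 3. Under the Tet2 cKO label it stood at 1.79, 1.98 and 1.82 FPKM. All 3 libraries with the label lay below the lowest WT library. The means were 2.9 ± 0.391 and 1.86 ± 0.102 FPKM (SD, n = 3 each), or 0.639-fold (95% interval 0.522 to 0.782). The log2 difference was -0.65 (SE 0.13), with an unadjusted p = 0.000615 and an adjusted p = 0.9999 by edgeR's quasi-likelihood test. Over the alternatives, the adjusted p ran from 0.0154 without an expression filter, which is a call, up to 1, and DESeq2 gave adjusted p = 0.135. The counts behind these values were 228, 268 and 302 in the WT libraries, and 168, 191 and 175 in cKO-labelled libraries.

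Ttc21b (ENSMUSG00000034848, minus strand of chromosome 2, 66184327 to 66256617) showed no such separation. It stood at 2.24, 2.10 and 2.20 FPKM in the WT libraries, and 2.16, 2.24 and 2.24 FPKM in cKO-labelled libraries, and these ranges overlap almost wholly. Its log2 difference was 0.01 (95% interval -0.18 to 0.21). The ratio of Ttc21a to Ttc21b was 1.09, 1.47 and 1.44 in the WT libraries, and 0.829, 0.884 and 0.812 in cKO-labelled libraries, so Ttc21a was the more abundant paralog per length in each WT library and the less abundant in each other library. The log2 ratio differed by -0.65 between the groups. An exact permutation test, two-sided, had p = 0.1, the lowest that 3 libraries against 3 allow. Ttc21a was already known from earlier results on these libraries to have a small p, so this test adds no separate support.

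Markers of ependymal cells had differences of the same sign as Ttc21a. All 11 ependymal markers had a negative log2 difference, beside 50.9% of all tested genes, with a median of -0.43. Of the 11, 0 passed edgeR's test and 7 had an unadjusted p under 0.05, beside 2.57% of all tested genes. Beside 6.8% of all tested genes, the groups did not overlap for 6 of these 11 markers. Their score was 2.84, 2.86 and 3.10 in the WT libraries, and 2.57, 2.67 and 2.42 in cKO-labelled libraries (p = 0.1 by an exact permutation test, again the lowest allowed). Their summed level ran from 77.6 to 100 FPKM in WT and from 55.8 to 74.0 FPKM in cKO-labelled libraries, and none was at 0 in any library. Of the most abundant, Fam183b had means of 13.1 and 10.7 FPKM, Ccdc153 of 12.2 and 9.12 FPKM and Dynlrb2 of 11.5 and 8.58 FPKM, WT first. Choroid plexus markers, among them Ttr and Clic6, had negative log2 differences for 12 of 12 tested, with a median of -1.14. Of the 12, 8 had an unadjusted p under 0.05 by edgeR (2.57% of all tested genes), and 0 passed after adjustment. Slc4a5 and Aqp1 passed the expression filter only through WT (means of 1.7 and 2.09 FPKM, against 0.66 and 0.813 FPKM in cKO-labelled libraries). Groups did not overlap for 1 of the 12 (6.8% of all tested genes). Their score overlapped, at 3.06, 2.57 and 1.94 in the WT libraries, and 2.30, 1.56 and 1.76 in cKO-labelled libraries (p = 0.2 by an exact permutation test). Their summed level was 453 to 1410 FPKM in the WT libraries, and 174 to 831 FPKM in cKO-labelled libraries. Ttr alone had 430.48 to 1346.62 FPKM in the WT libraries. The score of 6 astrocyte markers differed the other way, at 5.89, 5.88 and 5.64 in the WT libraries, and 5.94, 5.96 and 5.91 in cKO-labelled libraries (p = 0.1 by an exact permutation test). Of the 6 markers, 4 had a positive log2 difference and 2 a negative one, and 0 passed edgeR's test. The water channel gene Aqp4 and the connexin gene Gja1 differed by 0.57 and 0.22. Only for these 2 of the 6 did the groups not overlap, beside 6.8% of all tested genes. Only these 2 had an unadjusted p under 0.05 by edgeR, beside 2.57% of all tested genes. Slc1a3 and Aldoc went the other way, at -0.14 and -0.09. The summed level of the 6 ran from 496 to 500 FPKM in the WT libraries, and from 505 to 524 FPKM in cKO-labelled libraries, with none at 0. The part of these cell types in the difference of Ttc21a was not tested, and in bulk RNA fewer cells of a type cannot be told apart from less RNA per cell.

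**Figure D2:**
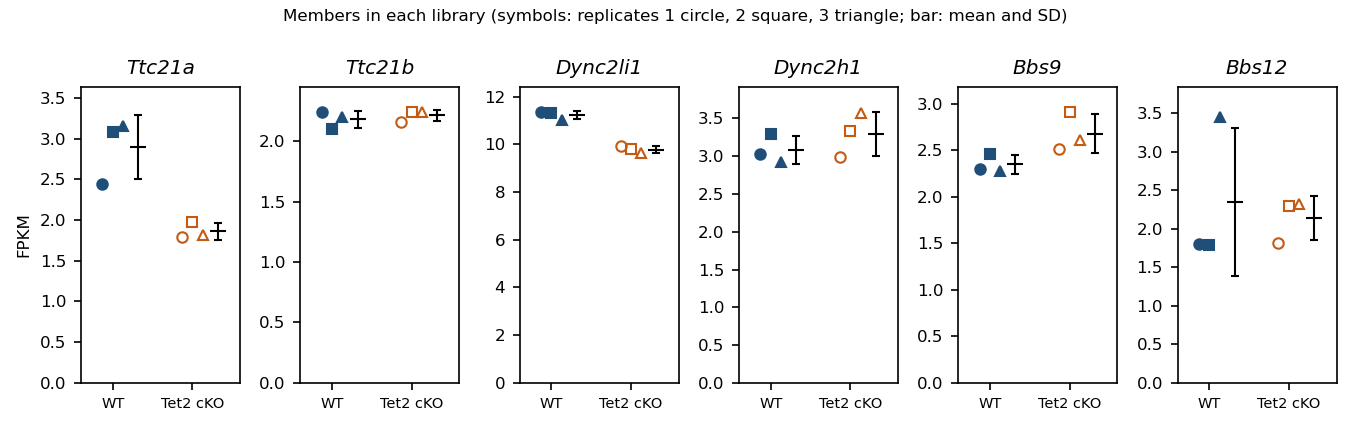
FPKM (vertical axes, from 0) of 6 of the genes in each library, WT filled and Tet2 cKO open, with the mean and SD of 3 libraries beside them. Ttc21a, Dync2li1 and Bbs9 separate the groups, Ttc21b and Dync2h1 do not, and Bbs12 has 1 high WT library at 3.45 FPKM.

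The other 5 subunit genes of IFT-A showed no separation of the groups. Ift43, the smallest subunit, stood at 7.60, 6.63 and 9.63 FPKM in the WT libraries, and 6.77, 7.67 and 7.32 FPKM in cKO-labelled libraries. WT replicate 3 was the high library, and without it the log2 difference went from -0.14 to 0.029. Wdr35 and Wdr19 encode IFT121 and IFT144, and they differed by 0.0026 and -0.09. Ift140 and Ift122 differed by 0.02 and -0.03. The levels of these IFT-A genes in WT ran from 2.92 FPKM for Ift122 to 7.95 FPKM for Ift43.

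Of the kinesin-2 genes, Kifap3 and Kif3a were among the 3 most abundant of the set, and none of the 4 separated the groups. The motor works as a heterotrimer of KIF3A, KIF3B and the adaptor KAP3, which Kifap3 encodes, and it also carries axonal cargo in neurons. Kifap3 (chromosome 1, 163779583 to 163917109) stood at 71.04, 69.93 and 66.32 FPKM in the WT libraries, and 69.24, 75.58 and 72.58 FPKM in cKO-labelled libraries, above 96.4% of all tested genes. Kif3a (chromosome 11, 53567379 to 53601967) stood at 37.82, 38.18 and 32.16 FPKM in the WT libraries, and 32.86, 38.46 and 37.08 FPKM in cKO-labelled libraries. WT replicate 3 and Tet2 cKO replicate 1 were the low libraries for Kif3a, and the groups overlapped. Kif3b was lowest in the same libraries, at 10.88 and 11.56 FPKM, against 13.03 to 14.35 FPKM in the other 4. Kif17, a homodimeric kinesin-2 gene, had a WT mean of 4.93 ± 0.280 FPKM (SD, n = 3). The log2 differences of the 4 genes ran from -0.06 (Kif3b) to 0.06 (Kifap3).

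Per length, the kinesin-2 subunit genes kept unequal levels that were stable over libraries. Kifap3 exceeded Kif3a 1.83 to 2.06 times in the WT libraries, and 1.96 to 2.11 times in cKO-labelled libraries. Kif3a exceeded Kif3b 2.64 to 2.96 times in the WT libraries, and 2.84 to 2.95 times in cKO-labelled libraries. Kif3c, which encodes an alternative partner of KIF3A and is not among the 39, had a mean of 19 FPKM in the WT libraries, and 19.1 FPKM in cKO-labelled libraries, so per length it exceeded Kif3b.

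Of the dynein-2 genes, the light intermediate chain gene and the heavy chain gene had differences of opposite sign. Dync2li1 (ENSMUSG00000024253, plus strand of chromosome 17, 84626496 to 84655588) stood at 11.35, 11.31 and 11.04 FPKM in the WT libraries, and 9.94, 9.79 and 9.63 FPKM in cKO-labelled libraries. The groups did not overlap and each was tight, with a coefficient of variation of 1.5% in the WT libraries, and 1.58% in cKO-labelled libraries. The log2 difference was -0.21 (SE 0.0866), or 0.867-fold (95% interval 0.758 to 0.991), with unadjusted p = 0.0389 and adjusted p = 0.9999 by edgeR's quasi-likelihood test. Leaving out any 1 library kept the value between -0.21 and -0.19, but the unadjusted p was then over 0.05, as it was with DESeq2, without an expression filter and with a replicate block. Dync2h1, the motor subunit, stood at 3.03, 3.29 and 2.93 FPKM in the WT libraries, and 2.99, 3.34 and 3.57 FPKM in cKO-labelled libraries. Its log2 difference was 0.09 (95% interval -0.11 to 0.29), and the groups overlapped. The ratio of Dync2h1 to Dync2li1 was 0.267, 0.291 and 0.265 in the WT libraries, and 0.301, 0.341 and 0.371 in cKO-labelled libraries, ranges that do not overlap. That ratio was chosen after values were seen and was not tested.

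IFT-B core genes lay close to 0, with a median log2 difference of 0.0094 over 7 genes. Ift22, a small GTPase of the core, was the most abundant of them, at 13.52, 13.80 and 15.48 FPKM in the WT libraries, and 14.87, 15.19 and 12.59 FPKM in cKO-labelled libraries. Ift88, whose loss is the classic way to remove primary cilia in mice, stood at 7.52, 7.47 and 6.22 FPKM in the WT libraries, and 6.38, 6.64 and 5.82 FPKM in cKO-labelled libraries. The groups overlapped for Ift88 only through WT replicate 3. Its log2 difference was -0.18 (SE 0.102, unadjusted p = 0.112, adjusted p = 0.9999 by edgeR), and -0.25 without that library (unadjusted p = 0.0185). Exons of Ift88 share 67 bases with the opposite-strand gene Ift88os, which had a mean of 0.423 FPKM in WT.

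IFT81 and IFT74 bind each other and together contact tubulin. Ift81 stood at 7.27, 7.26 and 6.52 FPKM in the WT libraries, and 6.73, 8.0 and 7.74 FPKM in cKO-labelled libraries, a log2 difference of 0.09 (95% interval -0.12 to 0.30). The ratio of Ift81 to Ift74 was 0.763, 0.770 and 0.627 in the WT libraries, and 0.606, 0.777 and 0.903 in cKO-labelled libraries, so it varied more within a group than between the groups. Ift52, Ift46 and Ift27 had log2 differences of 0.05, 0.0063 and 0.0093.

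IFT-B peripheral genes had a median log2 difference of -0.02 over 6 genes, and none separated the groups. Ift20 encodes a subunit that is also found at the Golgi, where cargo leaves for the cilium. It stood at 20.28, 22.33 and 23.91 FPKM in the WT libraries, and 20.11, 21.12 and 19.40 FPKM in cKO-labelled libraries. Its log2 difference was -0.14 (95% interval -0.35 to 0.06), with 2 of 3 cKO-labelled libraries below every WT library. Ift57 stood at 15.61, 15.59 and 20.79 FPKM in the WT libraries, and 18.23, 14.92 and 14.95 FPKM in cKO-labelled libraries, high in WT replicate 3 and in Tet2 cKO replicate 1. Without WT replicate 3 its log2 difference went from -0.12 to 0.04. IFT57 pairs with IFT38, the product of Cluap1, and Cluap1 was high in the same 2 libraries, at 11.82 and 12.08 FPKM against 9.42 to 10.24 FPKM in the others. The ratio of Ift57 to Cluap1 stayed between 1.46 and 1.76 over the 6 libraries. Traf3ip1 (IFT54), Ift172 and Ift80 differed by 0.03, 0.0011 and -0.04, each with groups that overlapped.

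**Figure D3:**
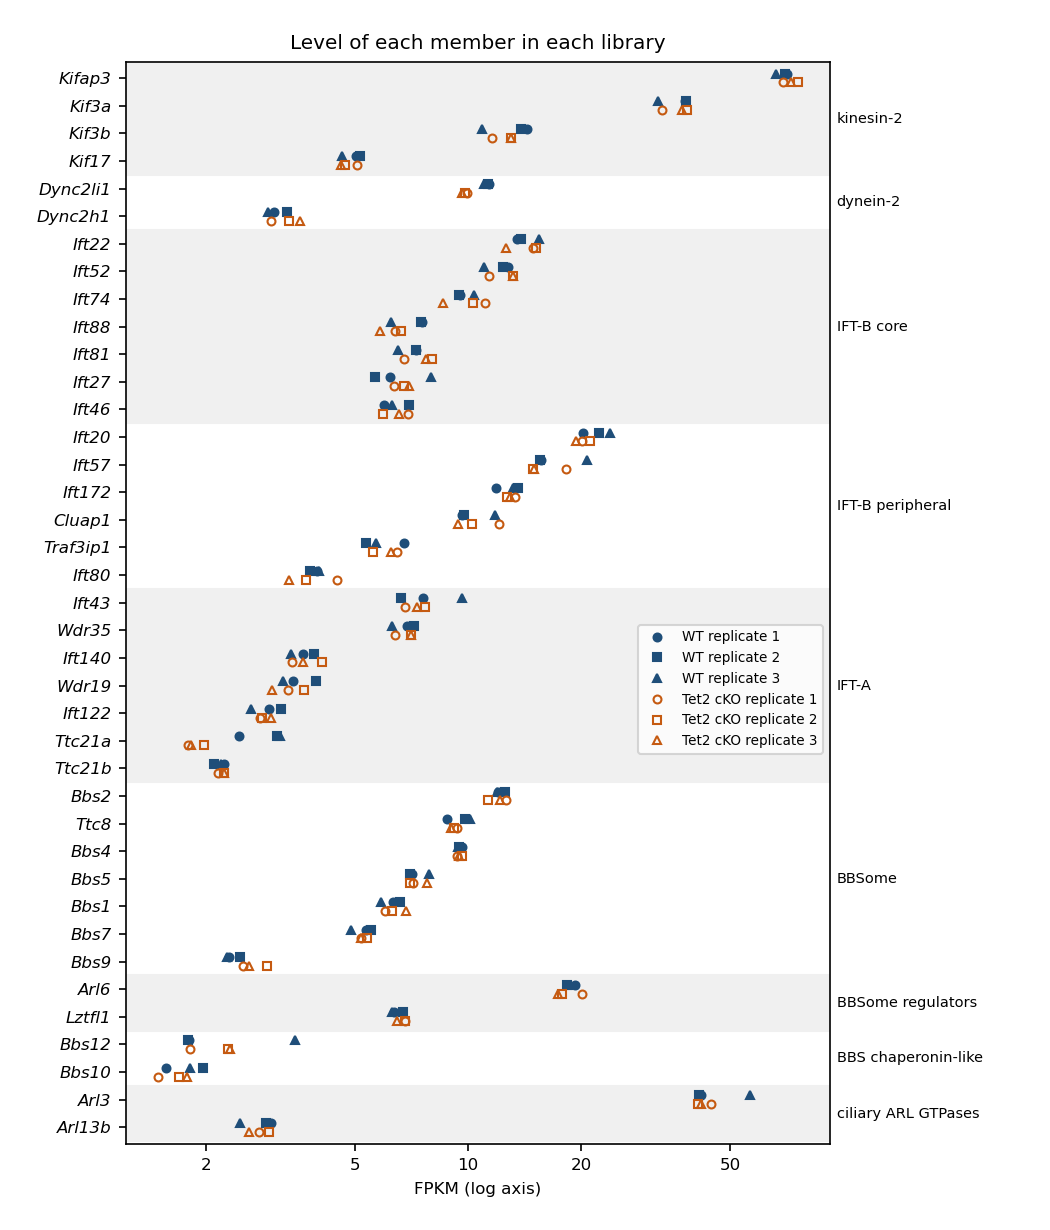
FPKM of each of the 39 genes (horizontal log axis) in each library, WT filled and Tet2 cKO open, grouped by role and ordered by WT level within a role. Kifap3, Arl3 and Kif3a lie highest, Bbs10 and Ttc21b have the lowest WT means, and most rows show both groups over 1 shared range.

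BBSome genes had a median log2 difference of -0.01 over 7 genes. Bbs2, a core subunit, was the most abundant, at 12, 12.56 and 11.93 FPKM in the WT libraries, and 12.61, 11.29 and 12.16 FPKM in cKO-labelled libraries. Bbs4 was the most even of the 39 genes in both groups together, with a coefficient of variation of 1.14% in the WT libraries, and 1.48% in cKO-labelled libraries. Its exons share 194 bases with Adpgk on the opposite strand, and reads of the pair cannot be told apart without strand. Bbs9 (ENSMUSG00000035919, plus strand of chromosome 9, 22475715 to 22888280) encodes a subunit with a beta-propeller. It stood at 2.30, 2.46 and 2.28 FPKM in the WT libraries, and 2.51, 2.91 and 2.61 FPKM in cKO-labelled libraries, and all 3 cKO-labelled libraries lay above every WT library. The gap between Tet2 cKO replicate 1 (2.51 FPKM) and WT replicate 2 (2.46 FPKM) was small, and the log2 difference of 0.18 (SE 0.105) had an unadjusted p = 0.117 and an adjusted p = 0.9999 by edgeR. Without Tet2 cKO replicate 2 it was 0.12. The other BBSome genes, Ttc8 (BBS8), Bbs1, Bbs5 and Bbs7, had log2 differences from -0.07 to 0.02.

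The BBS chaperonin-like genes Bbs10 and Bbs12 help to assemble the BBSome and were among the 4 lowest of the set, with Ttc21b and Bbs9. Bbs12 stood at 1.80, 1.79 and 3.45 FPKM in the WT libraries, and 1.81, 2.29 and 2.32 FPKM in cKO-labelled libraries. These rest on 76, 70 and 149 counts in the WT libraries, and 77, 100 and 101 counts in cKO-labelled libraries. WT replicate 3 was 1.92 times the other 2 WT libraries, the largest such gap of the 39 genes. Its log2 difference was -0.14 with all libraries and 0.26 without WT replicate 3, so the sign rested on 1 library, and Bbs12 shares 32 exon bases with Cetn4 on the opposite strand. Bbs10 stood at 1.57, 1.96 and 1.81 FPKM in the WT libraries, and 1.49, 1.70 and 1.78 FPKM in cKO-labelled libraries, with a log2 difference of -0.11 (95% interval -0.49 to 0.27).

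The regulators of the BBSome and the ciliary ARL GTPases showed no separation. Arl6, the GTPase that recruits the BBSome to membranes, stood at 19.29, 18.37 and 18.43 FPKM in the WT libraries, and 20.11, 17.80 and 17.35 FPKM in cKO-labelled libraries. Lztfl1, which binds the BBSome and restrains its entry into cilia, differed by 0.04 (95% interval -0.11 to 0.20). Arl3 releases lipidated cargo in the cilium, and Arl13b is its exchange factor. Arl3 (chromosome 19, 46531096 to 46573198) stood at 41.68, 41.16 and 56.54 FPKM in the WT libraries, and 44.46, 41.02 and 41.84 FPKM in cKO-labelled libraries. The high library was again WT replicate 3. Without it the log2 difference of Arl3 went from -0.14 to 0.04. Arl13b had a WT mean of 2.78 ± 0.274 FPKM, and per length Arl3 exceeded it in each library.

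In order of WT level, the 39 genes ran from Kifap3 at 69.1 FPKM to Bbs10 at 1.78 FPKM, with a median of 7.02 FPKM beside 6.28 FPKM for all tested genes. Neighbours in that order mostly could not be separated. The ranges over the 3 WT libraries overlapped for 30 of 38 neighbouring pairs and lay apart for 8. The top was resolved, since Kifap3, Arl3, Kif3a and Ift20 each lay above the next gene in every WT library. The median level was 24.5 FPKM for kinesin-2 genes, 11.6 FPKM for IFT-B peripheral genes, 7.31 FPKM for BBSome genes, 7.07 FPKM for IFT-B core genes and 3.52 FPKM for IFT-A genes. The median biological coefficient of variation in the edgeR fit was 8.75% for the 39 genes and 9.69% for all tested genes.

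WT replicate 3 stood apart in the transport genes too. It lay outside both other WT libraries for 33 of 39 genes, above them for 13 and below them for 20. The matching share over all tested genes was not computed. It was over 1.25-fold from the mean of the other 2 for 6 genes, against 1 gene over 1.25-fold between the groups. These counts are not alike, since the first sets 1 library against 2 in FPKM. The second is a fitted difference of 3 libraries against 3. Bbs12, Arl3, Ift43, Ift27 and Ift57 were the 5 above, at 1.92, 1.37, 1.36, 1.34 and 1.33 times. Kif3b was the 1 below, at 0.772 times. WT replicate 3 held the highest or lowest value of 24 of the 39 genes (61.5%), near its 54.3% over all tested genes. Cell type markers differed in the same library too, with the choroid plexus score at 1.94 against 3.06 and 2.57 in the other WT libraries. The part of cell makeup in these values was not tested. Without WT replicate 3, Ttc21a stayed at -0.57 and Dync2li1 at -0.21.

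**Figure D4:**
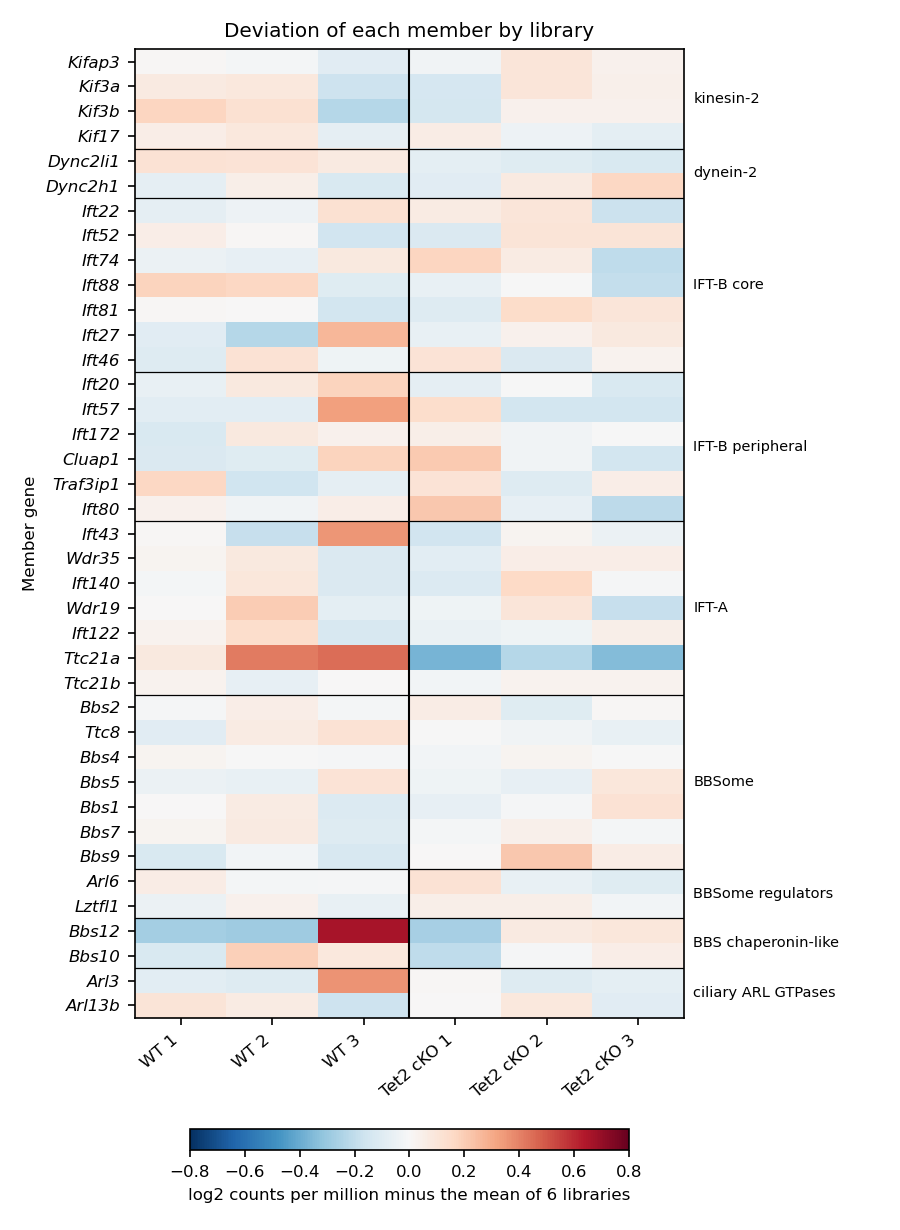
Deviation of each of the 39 genes (rows, by role) from its mean over 6 libraries, in log2 CPM, counts scaled to library size (red above, blue below), for each library (columns). Ttc21a is red in 3 WT and blue in 3 Tet2 cKO columns, and the column of WT replicate 3 holds the darkest cell, Bbs12.

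Genes of the same pathway outside the 39 also differed little. Of the other IFT, BBSome and dynein-2 genes, 18 were tested, 13 were below 0 and 5 above, and 0 passed edgeR's test. The list includes dynein light chains that other dyneins share. Ttc30a1, a form of the IFT70 subunit, had the smallest unadjusted p (0.0434), at 1.93 FPKM in the WT libraries, and 1.53 FPKM in cKO-labelled libraries, and its near-identical copies make its count uncertain. Mkks (BBS6), Dynll2 and Ttc30b differed by -0.25, 0.10 and -0.13. The median of the list was -0.05.

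The ciliary transition zone, the gate at the base of the cilium, was measured by 24 genes, of which 18 were below 0 and 6 above, with a median of -0.06 and 0 passing, also at an unadjusted p under 0.05. Iqcb1 differed by 0.16, Mks1 by -0.32, Tmem231 by -0.19 and Tctn1 by -0.12. A list for lipidated cargo transport, mainly partners of Arl3 and Arl13b, ran from -0.12 to 0.02 over 10 genes, 2 of which are also in the transition zone list. It also holds Cystm1 (0.0072), whose place among these partners is not established here. Of 11 tested genes for membrane proteins of neuronal cilia, 6 were below 0. The somatostatin receptor gene Sstr3 differed by -0.04 and the ciliary adenylyl cyclase gene Adcy3 by -0.06. Of these lists, 0 members passed edgeR's test over all genes.

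Axonemal genes of motile cilia, which ependymal cells express, lay further from 0. Of 20 tested, 19 were below 0, with a median log2 difference of -0.44 (0.739-fold). No gene passed edgeR's test, 12 had an unadjusted p under 0.05 (2.57% of all tested genes), and 12 had groups that did not overlap (6.8% of all tested genes). Cfap52, Dnah6, Rsph1 and Ak7 differed by -0.76, -0.85, -0.57 and -0.46, and Ccdc39 by 0.01. Dnah6, which these counts include, passed the expression filter only through WT (means of 1.65 FPKM in WT and 0.92 FPKM in cKO-labelled libraries). The mean of log2(FPKM + 1) over these 20 genes was 1.86, 1.97 and 2.09 in the WT libraries, and 1.69, 1.82 and 1.63 in cKO-labelled libraries. Over the 39 transport genes it was 3.11, 3.13 and 3.14 in the WT libraries, and 3.10, 3.12 and 3.09 in cKO-labelled libraries. These are descriptions of the lists side by side, and earlier results on these libraries had already shown the axonemal direction. The ependymal marker values given with Ttc21a stand beside this list and are not separate from it, since Rsph1 is in both. The part of ependymal cells in the axonemal list was not tested.

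**Figure D5:**
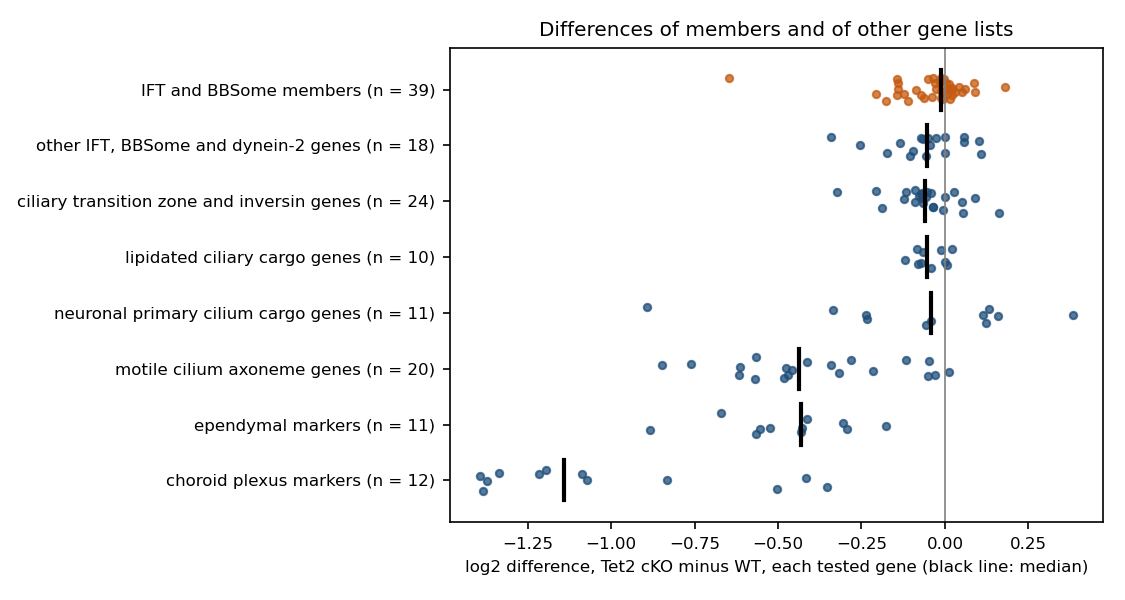
Log2 difference (Tet2 cKO minus WT, horizontal axis) of each tested gene in 8 lists, with the median of each list as a black line. The transport genes gather at 0 with Ttc21a as the far point, and the axonemal, ependymal and choroid plexus lists lie to the left. Rsph1 is in both the axonemal and the ependymal list.

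Promoters were read because RFX factors are known regulators of ciliary genes and bind a motif called the X-box, made of a pair of facing arms. RefSeq windows on GRCm38.p6, from 250 bases before a gene's start to 50 bases after it, were given for 35 of the 39 genes, and not for Dync2li1, Ift80, Ift81 and Ift122. Both strands were searched. The arm GTTGCC was in 16 of 35 windows (45.7%), beside 14.1% of all 27025 genes with a window and 15.2% of the 10357 tested ones. The X-box, taken as GTTNCC followed by 2 or 3 bases of any kind and GNAAC, can hold that arm and was in 3 of 35 (8.57%), beside 1.71% of all genes. A wider form, GTTGCC followed by 3 bases of any kind and GGCAAC, was added after the windows were seen, and was in Lztfl1 and in 8 of 27025 genes in all. The 4 matches are shown 5′ to 3′ on the gene's strand because they hold both arms, with the motif in capitals. They lie 107, 47, 60 and 149 bases before the RefSeq start, in the order printed. The arm of Ttc21a follows them, since that gene carried the largest difference, and it ends 12 bases past the start.
Bbs7 (chr3:36613489-36613518, minus strand): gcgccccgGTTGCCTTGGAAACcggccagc
Ift57 (chr16:49699226-49699254, plus strand): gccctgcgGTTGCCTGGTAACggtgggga
Kif17 (chr4:138262170-138262198, plus strand): tcacggagGTTGCCCAGCAACggcgaacg
Lztfl1 (chr9:123717768-123717796, minus strand): tttctctGTTGCCATTGGCAACggcaggc
Ttc21a (chr9:119937600-119937629, plus strand): gccagcagccagGTTGCCaaggacgcgcgc

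The genes with both arms did not stand out by their differences, which were -0.0062 for Bbs7, -0.12 for Ift57, -0.05 for Kif17 and 0.04 for Lztfl1. Of the 16 genes with the arm, 8 were below 0, with a median of -0.0016, and of the 19 without it, 12 were below 0, with a median of -0.03. A match describes letters in a window and does not show that a factor binds there.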

How the data were processed

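The submitters' processing notes name build mm10 and the tools HISAT2 2.0.1, SAMtools 0.1.19, cutadapt 1.9.1 and FastQC 0.10.1. How reads were counted, and whether by strand, is not given in the sources used here. The deposited table holds raw counts per Ensembl gene and the authors' FPKM, which equal the counts scaled to exonic size and library total within 0.0051 for 100% of values.

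Counts of the 3 WT and 3 Tet2 cKO libraries were fitted in R 4.3.3 with edgeR 4.0.16, using its two-sided quasi-likelihood test and TMM scaling with no covariate. The filter kept genes whose mean reached 1 FPKM, with Benjamini-Hochberg adjustment over 14539 genes at a threshold of 0.05. That mean is over both groups together, so a gene could pass through its level in 1 group alone. Intervals are 95% intervals. The common biological coefficient of variation was 10.4%, and the median SE of the 39 genes 0.0972. The fit was tested on simulated data first. Alternatives were limma 3.58.1, DESeq2 1.42.0, other scalings and filters, a replicate block and leaving out each library. Marker scores and the log2 ratio of Ttc21a to Ttc21b were compared by exact permutation tests.

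Positions are from GENCODE release M21 on GRCm38, joined by gene identifier, since the table's own coordinates differ from that build. The genes and lists were chosen with earlier results of these data known. Values in every library are given for genes with groups that do not overlap, the 10 smallest p, the 3 highest and 3 lowest in WT, both TTC21 paralogs and the most abundant gene of each role. For other lists, up to 4 genes of smallest p were named, besides Slc4a5 and Aqp1 for the filter and Cystm1 for its uncertain place. Sstr3, Adcy3, Ccdc39, Kif3c, Aqp4 and Gja1 were chosen after their values were seen.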

Additional observations from a re-analysis of the deposited data

How the results depend on the processing

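Dync2li1 stayed below 0 in each of the 16 settings, and Ttc21a stayed below and Bbs9 above 0 in each setting that tested them, which leaves out the filter of at least 5 FPKM. Of the 39 genes, 14 kept 1 sign in every setting that tested them, 17 changed sign only when a library was left out, and 8 changed sign with all libraries in place; 63 of 612 values had the opposite sign. The number of genes called was 49 without an expression filter, 4 by DESeq2 and 2 by limma voom with library weights, and 0 to 3 on leaving out each library. Of the 39, 1 was called without a filter. With a mean of at least 5 FPKM, 27 of the 39 were tested and 15 were below 0; the number below 0 was then 7 for other IFT and BBSome genes, 5 for the transition zone, 4 for lipidated cargo, 1 for neuronal cargo and 2 for axonemal genes, as fewer genes were tested. Without a filter, 29 axonemal genes were below 0. Leaving out each library gave 4 to 9 for lipidated cargo, the 4 without Tet2 cKO replicate 2, and the cause was not tested.

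The cause of the changes of sign was not tested. Kif3a was at 0.0030 with library totals, 0.0012 without a filter, and 0.0042 and 0.0044 with limma at pseudocounts of 1 and 0.1. Bbs7 was at 0.0015 with library totals and at 0.0027 and 0.0034 with limma. With upper-quartile factors Ift172 was at -0.0040 and Wdr35 at -0.0023. With library weights Ift74 was at -0.0087, Bbs5 at 0.048, Wdr35 at -0.012, Traf3ip1 at -0.021 and Bbs12 at 0.21. Leaving out each library gave these ranges: Arl3 -0.23 to 0.037, Kif3a -0.070 to 0.063, Arl6 -0.094 to 0.014, Ift57 -0.22 to 0.040, Ift22 -0.065 to 0.069, Kif3b -0.17 to 0.016, Ift172 -0.054 to 0.036, Bbs2 -0.057 to 0.018, Cluap1 -0.086 to 0.13, Ift74 -0.057 to 0.12, Bbs4 -0.024 to 0.0016, Ift43 -0.26 to 0.029, Bbs5 -0.058 to 0.056, Wdr35 -0.039 to 0.051, Ift27 -0.096 to 0.18, Ift46 -0.042 to 0.066, Bbs1 -0.028 to 0.064, Traf3ip1 -0.042 to 0.13, Bbs7 -0.045 to 0.026, Ift80 -0.16 to 0.054, Ift140 -0.057 to 0.085, Ift122 -0.092 to 0.023, Arl13b -0.081 to 0.043, Bbs12 -0.31 to 0.26 and Ttc21b -0.019 to 0.035.

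The libraries share only replicate numbers. The correlation of same-numbered libraries' deviations over genes was -0.0413, 0.176 and -0.102, so the numbers were not taken as pairs. With a replicate block edgeR called 0 genes and 0 of the 39, with 23 of the 39 below 0, a median of -0.012 and 346 genes at an unadjusted p under 0.05 against 374. Ttc21a was then at -0.64, and Dync2li1 at -0.21 with an unadjusted p of 0.0707 in place of 0.0389. Blocked differences were -0.378 for the ependymal score, -0.646 for the choroid plexus score and -0.653 for the log2 ratio of Ttc21a to Ttc21b (exact sign-flip p = 0.25 each, the smallest possible).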
